A study of Homo sapiens with 6 samples.

Results

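A group of 9 genes that encode chromatin regulators and are recurrently mutated in clear cell renal carcinoma were followed in RCC4, a cell line from a human clear cell renal carcinoma, after knockout of ATF4, a transcription factor of the integrated stress response. The 9 genes, chosen by name from 60683 Ensembl IDs in the count table, were SMARCA4, ARID1A, SMARCB1, PBRM1, KMT2D, KMT2C, KDM5C, SETD2 and BAP1. Total RNA was sequenced as stranded poly(A) libraries from 3 samples of RCC4 ATF4 KO cells and 3 samples of parental RCC4 cells, which are labelled wild type. The labels give no treatment, no method of knockout, no statement that the KO cells are 1 clone or a pool, and none that the samples of a group were separate cultures. Scatter between the samples of a group, which is all that p-values can weigh here, may thus be technical. All 9 genes passed the filter on low counts, among 15321 genes tested.

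Chromatin regulators of this kind work in multi-subunit complexes. SWI/SNF complexes slide or evict nucleosomes with the energy of ATP, and they come as canonical BAF, PBAF and non-canonical BAF (ncBAF) according to their accessory subunits. COMPASS-type complexes methylate lysine 4 of histone H3 (H3K4), SETD2 trimethylates lysine 36 (H3K36), and BAP1 is the catalytic subunit of PR-DUB, which removes ubiquitin from histone H2A. In clear cell renal carcinoma PBRM1, SETD2 and BAP1 lie with VHL on the short arm of chromosome 3, which is commonly lost in these tumours.

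Libraries held 41002611 to 46755358 counts in ATF4 KO cells and 42502027 to 44524187 counts in parental cells. ATF4 itself was measured at 210, 223 and 209 CPM (counts per 1e+06 counts of the library, scaled by TMM) in ATF4 KO cells, against 239, 251 and 243 CPM in parental cells. On chromosome 22, where ATF4 lies, its 50 nearest tested genes had a median log2 fold change of -0.25 and ATF4 one of -0.19. With the neighbours' median removed ATF4 stood at 0.06 (edgeR adjusted p = 0.086). A regional shift and an effect of the knockout on ATF4's level cannot be told apart here, so its level does not check the labels. A count over the whole gene also need not fall when a short stretch is disrupted. The 9 renal carcinoma markers were all detected, with summed levels of 7201 to 7380 CPM in ATF4 KO cells and 6355 to 6742 CPM in parental cells, 4 of them higher and 3 lower. VIM alone had 5091 to 5293 CPM in ATF4 KO cells and 4640 to 4965 CPM in parental cells, so the sums say little of the others. CA9 (log2 fold change 2.55) and NDUFA4L2 (0.77) had the largest increases, and EPCAM (-0.19) and PAX8 (-0.15) the largest decreases. The 4 endothelial markers and 4 of 5 leukocyte markers stayed under 1 CPM, the exception being CSF1R at 6.37 to 6.87 CPM in ATF4 KO cells and 2.74 to 3.30 CPM in parental cells. All 8 proliferation markers were higher in ATF4 KO cells, with summed levels of 710 to 718 CPM in ATF4 KO cells against 361 to 453 CPM in parental cells, and their part in the results given here was not tested. In bulk RNA, fewer cells that express a gene and less RNA per cell cannot be told apart.

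Of the 9 genes, ARID1A, KMT2D and SMARCA4 were higher in ATF4 KO cells, SMARCB1 and KDM5C were lower, and SETD2, BAP1, PBRM1 and KMT2C did not pass the test. Every fitted change was small, between -0.25 and 0.20 on the log2 scale, and the median over the 9 genes was 0.07 beside 0.01 over all 15321 tested genes. Calls here rest on edgeR's quasi-likelihood test with a Benjamini-Hochberg adjusted p below 0.05. Among all tested genes 21.2% were called higher and 20.8% lower, so 3 higher and 2 lower among 9 genes is near the background. The CPM ranges of the groups did not overlap for 5 of the 9 genes, beside 49.6% of all tested genes.

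**Figure D1:**
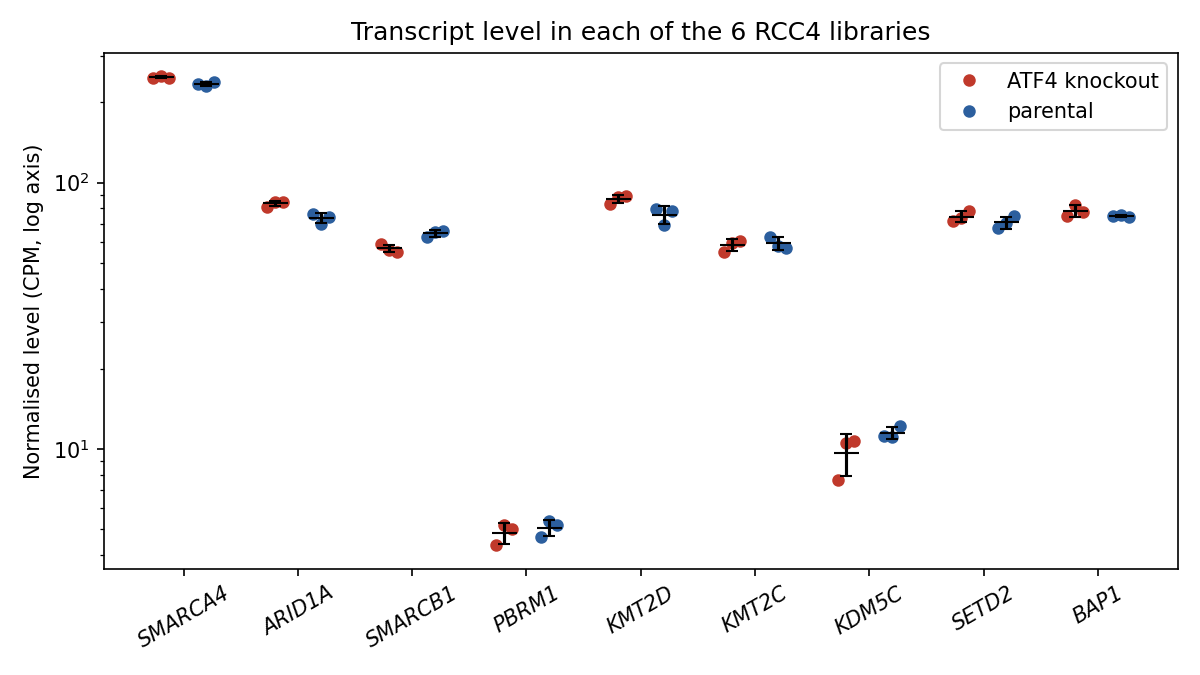
Normalised level of the 9 genes in CPM on a log axis, with 1 point per library, ATF4 KO in red and parental in blue, and the mean with its SD (n = 3) in black. The groups of ARID1A, KMT2D, SMARCA4, SMARCB1 and KDM5C do not overlap, and CPM levels of different genes cannot be compared because the genes differ in length.

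The SWI/SNF members moved in different directions. SMARCA4 (ENSG00000127616, chr19:10960825-11079426 on GRCh38), the ATPase that drives BAF complexes, had 248, 251 and 246 CPM in ATF4 KO cells, against 235, 230 and 239 CPM in parental cells. The KO libraries lay above the parental ones without overlap, but the difference was only 0.08 (SE 0.028, 95% interval 0.03 to 0.14, edgeR adjusted p = 0.0148). This call rested on single libraries: the adjusted p was 0.0639 without KO replicate 2 and 0.0871 without parental replicate 2.

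ARID1A (ENSG00000117713, chr1:26693236-26782110) encodes the large DNA-binding subunit of canonical BAF. It had 81.4, 84.6 and 85.0 CPM in ATF4 KO cells, against 76.4, 70.1 and 74.4 CPM in parental cells. All KO libraries were higher than all parental libraries, with a log2 fold change of 0.18 (SE 0.037, 95% interval 0.11 to 0.26, edgeR adjusted p = 4.6e-05).

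SMARCB1 (ENSG00000099956, chr22:23786931-23838008) encodes a core subunit that contacts the nucleosome and is lost in rhabdoid tumours. It had 58.7, 56.0 and 55.1 CPM in ATF4 KO cells, against 62.4, 65.2 and 65.8 CPM in parental cells. The KO libraries were all lower, with a log2 fold change of -0.19 (SE 0.041, 95% interval -0.27 to -0.11, edgeR adjusted p = 0.00013). Of its exon bases 17.7% overlap DERL3 on the opposite strand, a gene that was higher at 2.76 ± 0.451 CPM in ATF4 KO cells and 1.84 ± 0.321 CPM in parental cells (SD, n = 3 each). The strand setting of the counting is not given in the sources used here, so reads of the overlap may have been counted to either gene or to neither.

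PBRM1 (ENSG00000163939, chr3:52545352-52685917) encodes the polybromo subunit that defines PBAF and is, after VHL, the gene most often mutated in clear cell renal carcinoma. It had 179, 241 and 236 counts in ATF4 KO cells and 203, 235 and 218 counts in parental cells, which is 4.35, 5.18 and 4.99 CPM in ATF4 KO cells, against 4.67, 5.35 and 5.18 CPM in parental cells. The groups overlapped and the test found no difference (log2 fold change -0.06, 95% interval -0.30 to 0.18, edgeR adjusted p = 0.72). At these counts the interval was wide, and the test does not tell apart no change and a change inside it.

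Among the H3K4 regulators, KMT2D passed the test and its paralog KMT2C did not. KMT2D (ENSG00000167548, chr12:49018975-49059774), which monomethylates H3K4 at enhancers, had 83.2, 88.7 and 88.8 CPM in ATF4 KO cells, against 79.6, 69.4 and 78.6 CPM in parental cells. The KO libraries were all higher, with a log2 fold change of 0.20 (SE 0.042, 95% interval 0.11 to 0.28, edgeR adjusted p = 0.00025). KMT2C (ENSG00000055609, chr7:152134922-152436005), its paralog in a sister complex, had 54.9, 59.2 and 60.6 CPM in ATF4 KO cells, against 62.7, 57.6 and 57.1 CPM in parental cells. The KMT2C groups overlapped (log2 fold change -0.02, 95% interval -0.11 to 0.07, edgeR adjusted p = 0.74). KMT2C has pseudogene copies, 5 of which had 0 counts over the 6 samples, and reads that fit both a gene and a copy may have been lost from its count.

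KDM5C (ENSG00000126012, chrX:53191321-53225422) removes methyl groups from H3K4. It had 315, 490 and 508 counts in ATF4 KO cells and 488, 487 and 514 counts in parental cells, or 7.66, 10.5 and 10.7 CPM in ATF4 KO cells, against 11.2, 11.1 and 12.2 CPM in parental cells. KO replicate 1 was well below the other 5 libraries, which lay close together. The log2 fold change was -0.25 (SE 0.096, 95% interval -0.44 to -0.05, edgeR adjusted p = 0.036), and it came to -0.12 (adjusted p = 0.34) without KO replicate 1. The adjusted p was also above the threshold without parental replicate 1 (0.066) and without parental replicate 3 (0.11).

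SETD2 (ENSG00000181555, chr3:47016429-47163967), the enzyme that places most H3K36 trimethylation, had 71.9, 73.4 and 78.4 CPM in ATF4 KO cells, against 67.5, 70.6 and 74.8 CPM in parental cells. The groups overlapped, with a log2 fold change of 0.07 (95% interval -0.01 to 0.15, edgeR adjusted p = 0.14), although without parental replicate 3 it was 0.11 with an adjusted p of 0.031. BAP1 (ENSG00000163930, chr3:52401013-52410350), the deubiquitinase, had 75.0, 82.8 and 77.5 CPM in ATF4 KO cells, against 74.9, 75.4 and 74.5 CPM in parental cells. KO replicate 2 was the highest and KO replicate 1 lay within the parental range (log2 fold change 0.07, 95% interval -0.01 to 0.14, edgeR adjusted p = 0.16). The upper ends of the intervals were 0.153 for SETD2 and 0.142 for BAP1.

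The genes called lower lay among neighbours with negative values: 42 of the 50 nearest tested genes for SMARCB1 and 45 of 50 for KDM5C had fitted changes below 0. For each gene the median log2 fold change of the 25 tested genes on each side was taken and removed in a second edgeR fit. SMARCB1 lay in a stretch of chromosome 22 with a median of -0.27, where 25 of 50 neighbours were called lower and 3 higher. KDM5C lay in a stretch of the X chromosome with a median of -0.25, where 30 of 50 were called lower and 1 higher. Neither stretch was an exception on its chromosome: 60.7% of 351 tested genes of chromosome 22 and 58.2% of 502 of the X chromosome were lower in ATF4 KO cells, beside 20.8% of all genes.

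The neighbours of the other genes moved less. Their medians were 0.03 for ARID1A, 0.06 for SMARCA4, SETD2 and BAP1, 0.07 for PBRM1, 0.02 for KMT2C and 0.12 for KMT2D. Around KMT2D 21 of 50 neighbours were called higher and 2 lower. Chromosome 12 as a whole had a median of -0.04, with 13.8% of its tested genes called higher. The stretches around BAP1 and PBRM1 overlap, so their medians share genes. Chromosome 3 as a whole, which carries PBRM1, SETD2 and BAP1, had a median of 0.05.

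With the neighbours' median removed, ARID1A alone was called, at 0.15 (edgeR adjusted p = 0.00071). SMARCB1 stood at 0.09 (adjusted p = 0.091), KDM5C at 0.00 (0.99), KMT2D at 0.08 (0.13) and SMARCA4 at 0.02 (0.56). In that fit 18.0% of all tested genes were called higher and 18.5% lower, so 1 of 9 higher and 0 of 9 lower is not above the background. The ARID1A call ended when 50 genes on each side were used (0.08, adjusted p = 0.079), where SMARCB1 (0.11, adjusted p = 0.027), KMT2D (0.16, 0.0026) and SMARCA4 (0.07, 0.049) were called higher. With 10 genes on each side ARID1A was still called (0.15, edgeR adjusted p = 0.0010), and KMT2D stood at 0.02 (adjusted p = 0.77). The error of a neighbour median is not part of these p-values, and whether copy number differs between the 2 cell populations was not tested.

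**Figure D2:**
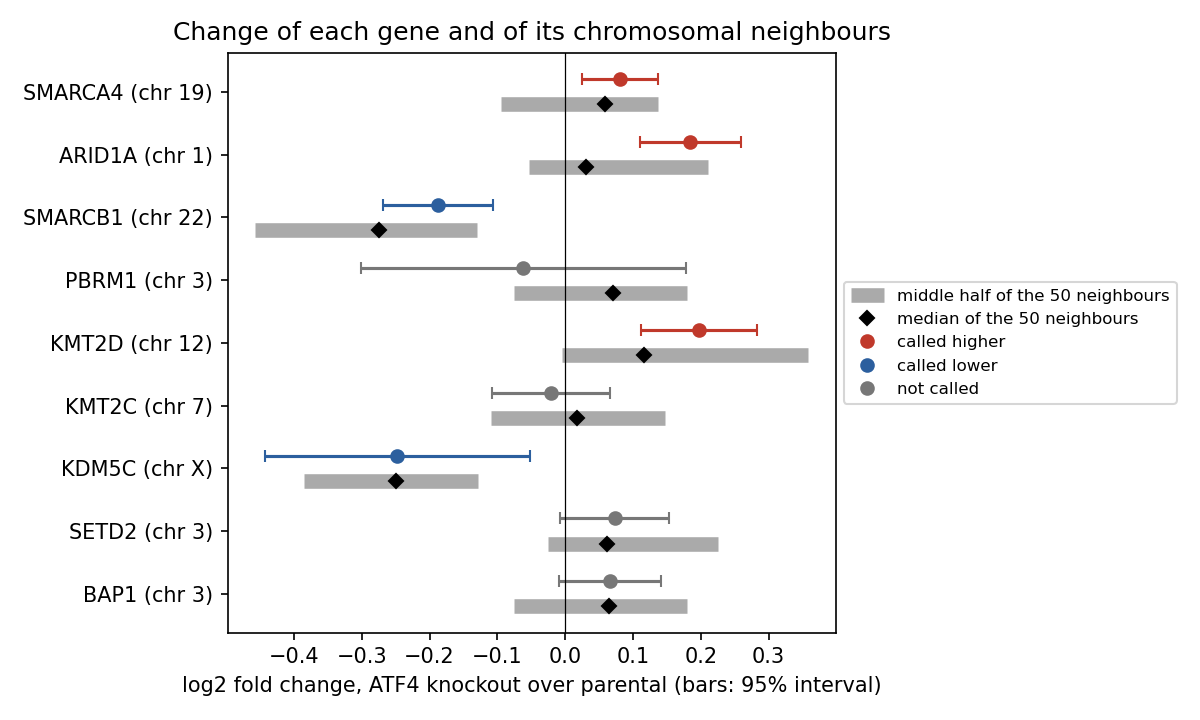
Log2 fold change of each gene, ATF4 KO over parental, with its 95% interval (circles), above the median (diamond) and interquartile range (grey bar) of its 50 tested neighbours. SMARCB1 and KDM5C, the genes called lower, lie in stretches with medians of -0.27 and -0.25.

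The genes next to the 9 did not all follow them. HMGN2, beside ARID1A, was higher at 151 CPM in ATF4 KO cells and 107 CPM in parental cells (log2 fold change 0.49), while RPS6KA1, PIGV and ZDHHC18 were not called. Beside KDM5C, IQSEC2 was lower (-0.39), and TSPYL2, KANTR and SMC1A were not called. ZNF70 and SLC2A11 beside SMARCB1 were lower (-0.38 and -0.56), whereas DERL3 was higher (0.59). SPC24, a kinetochore gene beside SMARCA4, was higher at 0.79.

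Promoter sequence was at hand for 8 of the 9 genes, in 10 windows of 250 bases before to 50 bases after the start (RefSeq, GRCh38.p14). BAP1 had no window and was not searched. ATF4 binds DNA as a dimer with C/EBP or AP-1 family proteins, so 3 words were searched on both strands: TGATGCAA, a CARE-type site, TGACGTCA, the cyclic AMP response element, and TGACGCAA, which joins a part of each. TGATGCAA occurred in 0 of the 8 genes and in 0.866% of 35116 promoters, and TGACGTCA in 0 of the 8 genes and in 1.85% of promoters. TGACGCAA occurred in KDM5C alone and in 0.513% of promoters, with its first base 78 bases before the start. A match is a description of letters, and no binding was measured. The KDM5C window (chrX:53225158-53225457, minus strand, TGACGCAA in capitals) is shown because it holds the single match, and the ARID1A window (chr1:26695765-26696064, plus strand, CG dinucleotides in capitals) because ARID1A was the gene still called at 25 neighbours a side.
KDM5C: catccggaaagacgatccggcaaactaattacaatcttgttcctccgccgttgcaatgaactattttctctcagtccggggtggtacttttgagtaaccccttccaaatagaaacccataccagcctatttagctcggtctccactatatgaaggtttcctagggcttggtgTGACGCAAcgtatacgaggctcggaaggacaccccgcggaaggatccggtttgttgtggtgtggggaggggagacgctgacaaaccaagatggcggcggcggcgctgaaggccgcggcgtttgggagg
ARID1A: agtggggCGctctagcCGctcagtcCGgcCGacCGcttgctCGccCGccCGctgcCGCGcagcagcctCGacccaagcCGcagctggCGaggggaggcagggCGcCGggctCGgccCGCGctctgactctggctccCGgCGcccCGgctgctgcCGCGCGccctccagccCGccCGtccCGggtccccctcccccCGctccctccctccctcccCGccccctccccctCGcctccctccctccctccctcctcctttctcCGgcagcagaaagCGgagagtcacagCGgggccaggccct
The ARID1A window was 78% G and C and held 33 CG dinucleotides, above 95.5% of promoters in GC content. The KDM5C window was 54.3% G and C with 22 CG dinucleotides, which is at the 40.3 percentile in GC content. The highest GC content among the 10 windows was that of KMT2C, at 88.7%.

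Levels of different genes were compared per length, as RPKM over the union of a gene's exons. SMARCA4 and BAP1 were the highest, at 15.7 and 15.5 RPKM in ATF4 KO cells and 14.9 and 14.8 RPKM in parental cells, and their ranges overlapped in both groups. SETD2 followed at 7.38 RPKM in ATF4 KO cells and 7.02 RPKM in parental cells, and ARID1A at 5.25 RPKM in ATF4 KO cells and 4.62 RPKM in parental cells. KMT2D (4.24 in ATF4 KO, 3.70 in parental) stood above SMARCB1 (3.43 in ATF4 KO, 3.90 in parental) in ATF4 KO cells, whereas in parental cells their ranges overlapped. KMT2C was at 2.90 RPKM in ATF4 KO cells and 2.94 RPKM in parental cells. All other neighbours in the order did not overlap in either group.

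KDM5C and PBRM1 closed the order in both groups. KDM5C had 1.11 ± 0.198 RPKM in ATF4 KO cells and 1.32 ± 0.0702 RPKM in parental cells, and PBRM1 had 0.502 ± 0.0451 RPKM in ATF4 KO cells and 0.524 ± 0.0364 RPKM in parental cells (SD, n = 3 each). PBRM1 was higher per length than only 18.4% of tested genes. The order depends on the length. Over the longest principal transcript, SMARCA4 had 42.9 RPKM in ATF4 KO cells and 40.5 RPKM in parental cells, apart from BAP1 at 19.9 RPKM in ATF4 KO cells and 19.0 RPKM in parental cells. On that length SMARCB1 ranked next after SMARCA4 and BAP1 at 10.9 RPKM in ATF4 KO cells and 12.4 RPKM in parental cells, while PBRM1 was again last at 0.955 RPKM in ATF4 KO cells and 0.998 RPKM in parental cells.

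PBRM1 stood below the other PBAF-specific subunits, but not below every subunit of the complex. Over principal transcripts ARID2, the PBAF-specific ARID subunit, had 6.35 RPKM in ATF4 KO cells and 5.98 RPKM in parental cells. BRD7 had 15.5 RPKM in ATF4 KO cells and 15.7 RPKM in parental cells, and PHF10 had 29.5 RPKM in ATF4 KO cells and 30.9 RPKM in parental cells. KDM5C was likewise below its paralogs, KDM5A at 8.88 RPKM in ATF4 KO cells and 9.93 RPKM in parental cells and KDM5B at 11.7 RPKM in both. SMARCE1, a core subunit shared by BAF and PBAF, was lower than PBRM1 at 0.724 RPKM in ATF4 KO cells and 0.832 RPKM in parental cells, and was picked out after its value was seen. HTSeq by default drops reads that fit more than 1 gene and the annotation release is not given in the sources used here, so whether a further gene model lowered the counts of PBRM1, KDM5C or SMARCE1 was not tested. GENCODE 29 has no gene on the same strand that shares an exon base with PBRM1 or KDM5C.

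**Figure D3:**
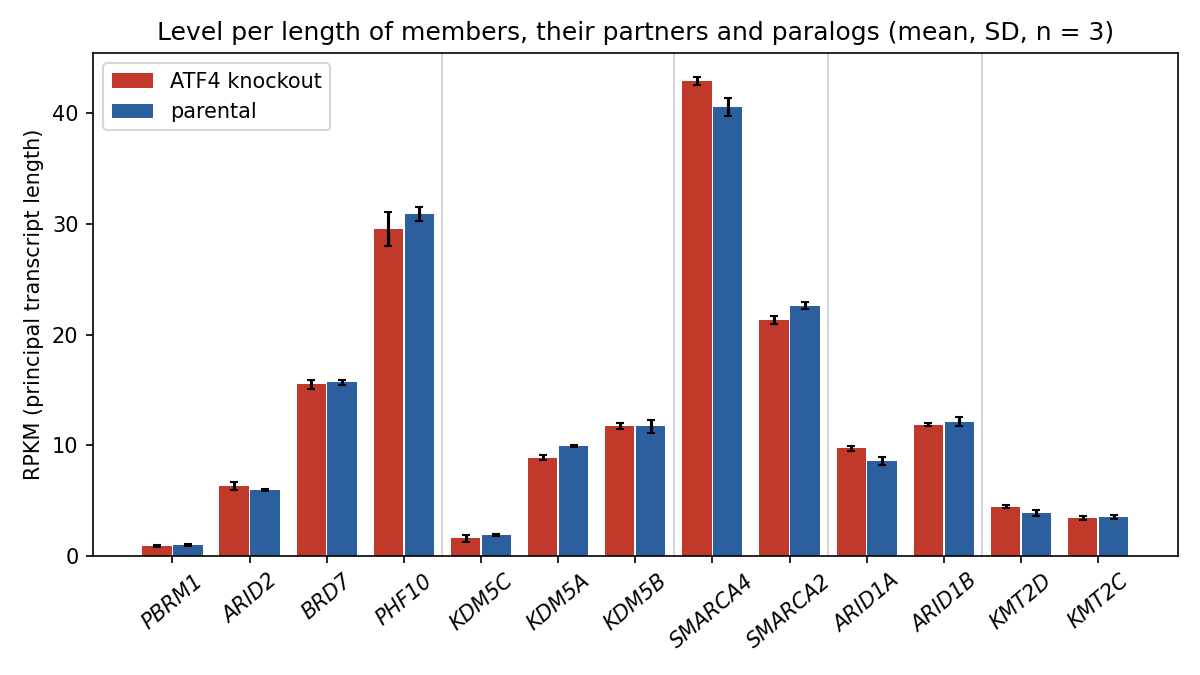
Level per length (RPKM over the longest principal transcript) of PBRM1 with its PBAF partners, of KDM5C with its paralogs, and of SMARCA4, ARID1A and KMT2D with theirs, as mean and SD of 3 libraries, ATF4 KO left of parental. PBRM1 (0.955 in ATF4 KO, 0.998 in parental) and KDM5C (1.60 in ATF4 KO, 1.91 in parental) are the lowest of the 13 genes.

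Pairs of related genes were compared as a ratio of counts within each library, which no scaling between libraries touches. The ratio of SMARCA4 to SMARCA2, the alternative ATPases, was 1.94 to 2.04 in ATF4 KO cells and 1.74 to 1.82 in parental cells. The ratio of ARID1A to ARID1B was 0.866 to 0.896 in ATF4 KO cells and 0.756 to 0.775 in parental cells. The ratio of KMT2D to KMT2C was 1.46 to 1.52 in ATF4 KO cells and 1.20 to 1.38 in parental cells. In all 3 of these paralog pairs the KO libraries were above the parental ones without overlap, with log2 differences of 0.17, 0.21 and 0.22. Each reached p = 0.1 in an exact two-sided permutation test, which is the smallest p that 3 against 3 libraries allow, and 0.17 after adjustment over the 5 ratios. Neighbour medians were not removed from these ratios, and they differed within each pair. They were 0.06 for SMARCA4 and 0.16 for SMARCA2, 0.03 for ARID1A and -0.14 for ARID1B, and 0.12 for KMT2D and 0.02 for KMT2C.

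The other 2 ratios overlapped between groups. PBRM1 to ARID1A, which are not paralogs but mark PBAF and canonical BAF, was 0.0535 to 0.0613 in ATF4 KO cells and 0.0611 to 0.0762 in parental cells (exact permutation p = 0.2, adjusted p = 0.25). KDM5C to KDM5A was 0.0788 to 0.114 in ATF4 KO cells and 0.104 to 0.114 in parental cells (exact permutation p = 0.9, adjusted p = 0.9), and KO replicate 1 alone was below the parental range. Without KO replicate 1 the log2 difference was 0.06.

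**Figure D4:**
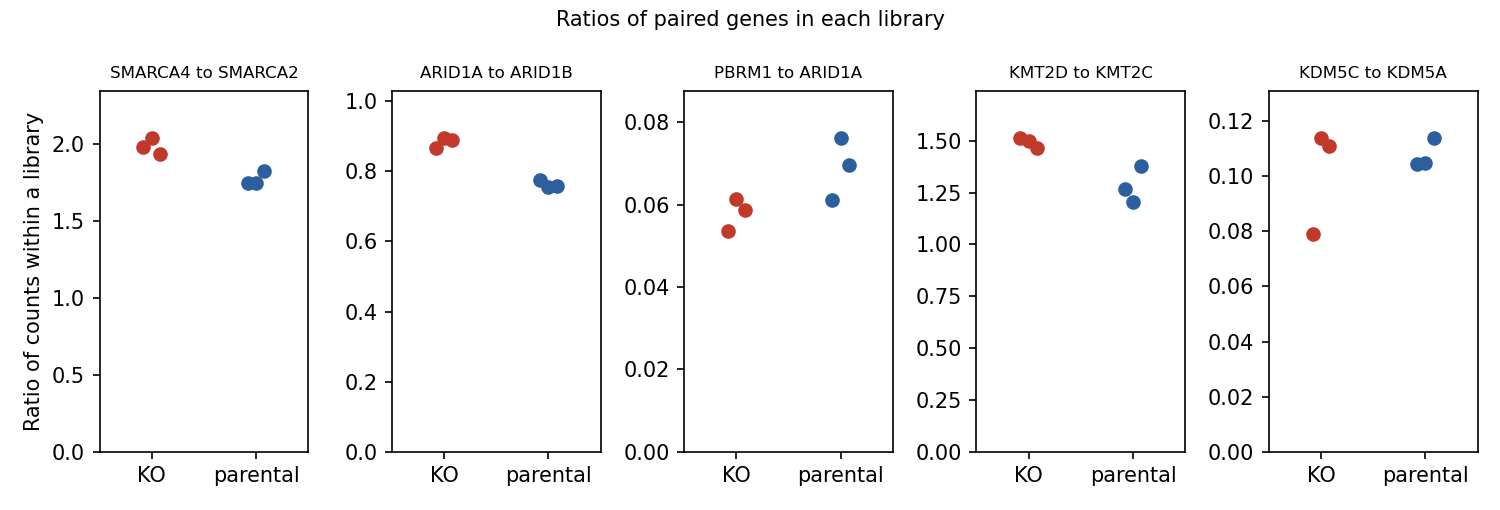
Ratio of counts of paired genes within each of the 6 libraries, ATF4 KO left of parental, each axis starting at 0. SMARCA4 to SMARCA2, ARID1A to ARID1B and KMT2D to KMT2C are higher in every KO library than in any parental one, and the other 2 ratios overlap.

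The wider complexes were read from lists of 118 further gene symbols. Of these, 117 were found in the count table, TCEB1 being the exception, and 113 were tested. Of these 113, 43 were higher and 20 lower in ATF4 KO cells, with a median log2 fold change of 0.05, beside 21.2% and 20.8% of all tested genes. These shares are not matched for level: with the strict filter (10 CPM in 3 libraries) 2524 of 9457 tested genes were higher and 2689 lower. With neighbour medians removed, 35 of the 113 were higher and 13 lower, beside 18.0% and 18.5% of all tested genes. The lists, described next, overlap one another and include the 9 genes where they belong. Their counts are read beside the same shares of all tested genes.

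SWI/SNF core genes went both ways, with 7 of 15 tested higher, 4 lower and a median of -0.01. ACTL6A, an actin-related subunit, was the most clearly higher at 87.0 CPM in ATF4 KO cells and 69.7 CPM in parental cells (log2 fold change 0.32, edgeR adjusted p = 3.4e-09). BCL7A, an accessory subunit, was lower at 37.1 CPM in ATF4 KO cells and 45.0 CPM in parental cells (-0.28, adjusted p = 1.7e-06). SMARCD3 and ACTL6B were not tested, with 0 to 3 counts a library. Of the 5 genes specific to canonical BAF 2 were higher and 1 lower: DPF1 at 0.69 (1.44 CPM in ATF4 KO cells and 0.888 CPM in parental cells, adjusted p = 0.015), ARID1A, and DPF2 at -0.12 (adjusted p = 0.039), which stood at 0.04 (0.57) with its neighbours removed. None of the 4 PBAF-specific genes passed, with ARID2 at 0.09 (adjusted p = 0.10) and PHF10 at -0.06 (adjusted p = 0.26). In ncBAF, BRD9 was higher at 0.23 but stood at -0.06 with its neighbours on chromosome 5 removed, and BICRA and BICRAL did not pass.

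Genes around H3K4 methylation were mixed as well. Of 6 methyltransferases KMT2D and SETD1A (0.16, edgeR adjusted p = 0.0036) were higher and none lower, and with neighbours removed none was called, SETD1A standing at 0.05 (adjusted p = 0.40). Of 13 COMPASS subunits 7 were higher and 3 lower, with WDR82 at 0.18, PSIP1 at 0.18 (0.08 and not called with neighbours removed) and KDM6A at -0.41. KDM6A, an H3K27 demethylase that sits in the KMT2C and KMT2D complexes and is encoded on the X chromosome, had 42.8 CPM in ATF4 KO cells and 57.0 CPM in parental cells and was still lower, at -0.20, with its neighbours removed. Of 5 H3K4 demethylases 3 were lower and 1 higher: besides KDM5C these were KDM5A (-0.16), KDM1B (-0.16) and KDM1A (0.15). With neighbours removed these 3 lower calls ended, KDM5A standing at -0.08 (edgeR adjusted p = 0.065) and KDM1B at -0.06 (0.22), KDM1A was still higher at 0.10, and KDM5B was called lower at -0.09 (0.023).

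Among the H3K36 genes more were called higher than lower, beside 21.2% higher and 20.8% lower among all tested genes. Of 7 methyltransferases 4 were higher and none lower, among them NSD2 at 0.40 (138 CPM in ATF4 KO cells and 105 CPM in parental cells), SMYD2 at 0.20 and NSD1 at 0.16, while SETD2 was not called. Of 16 readers and demethylases 6 were higher and 2 lower, led by PHF19, a Polycomb-associated H3K36 reader, at 0.78 (38.2 CPM in ATF4 KO cells and 22.2 CPM in parental cells). BRPF1 was higher at 0.34 and the DNA methyltransferase DNMT3B lower at -0.29. With neighbours removed 3 of the 7 methyltransferases were higher and 0 lower. Of the 16 readers and demethylases 5 were then higher and 2 lower, beside 18.0% and 18.5% of all tested genes. DNMT3B stood at -0.11 and PHF19 at 0.73 in that fit, both still called.

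BAP1 partners spanned changes of -0.14 to 0.97. Of 12 tested genes 3 were higher and 2 lower with a median of 0.04. BRCA1, a DNA repair protein found to bind BAP1, had 36.05 CPM in ATF4 KO cells and 18.3 CPM in parental cells (log2 fold change 0.97, SE 0.059, edgeR adjusted p = 2.1e-20), and its partner BARD1 had 12.6 CPM in ATF4 KO cells and 6.98 CPM in parental cells (0.85, adjusted p = 2.9e-10). ASXL1, the PR-DUB cofactor, was lower at -0.13 and stood at 0.06 with its neighbours on chromosome 20 removed. Among 24 Polycomb genes, some of which place the H2A ubiquitin that PR-DUB removes, 10 were higher and 2 lower, beside 21.2% and 20.8% of all tested genes. With neighbours removed 11 were higher and 1 lower, beside 18.0% and 18.5%. EZH2, the H3K27 methyltransferase, was higher at 0.46 and JARID2 at 0.45, and CBX6 was lower at -0.31 but at -0.05 against its neighbours on chromosome 22. With neighbours removed EZH2 stood at 0.49 and JARID2 at 0.60, both still called. BRCA1, BARD1, EZH2 and PHF19 were higher together with the 8 proliferation markers, and the part of proliferation in their levels was not tested.

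Of 14 other genes recurrent in renal carcinoma 4 were higher and 6 lower, with a median of -0.02. VHL, which is inactivated in this line and is named here outside the rule for the genes listed, was higher at 0.15 (edgeR adjusted p = 0.018, overlapping groups). With its neighbours removed VHL stood at 0.09 (edgeR adjusted p = 0.20) and was not called. KDM6A and ATM (-0.22) were among the genes called lower, and ATM stood at -0.10 (edgeR adjusted p = 0.048) with its neighbours removed.

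**Figure D5:**
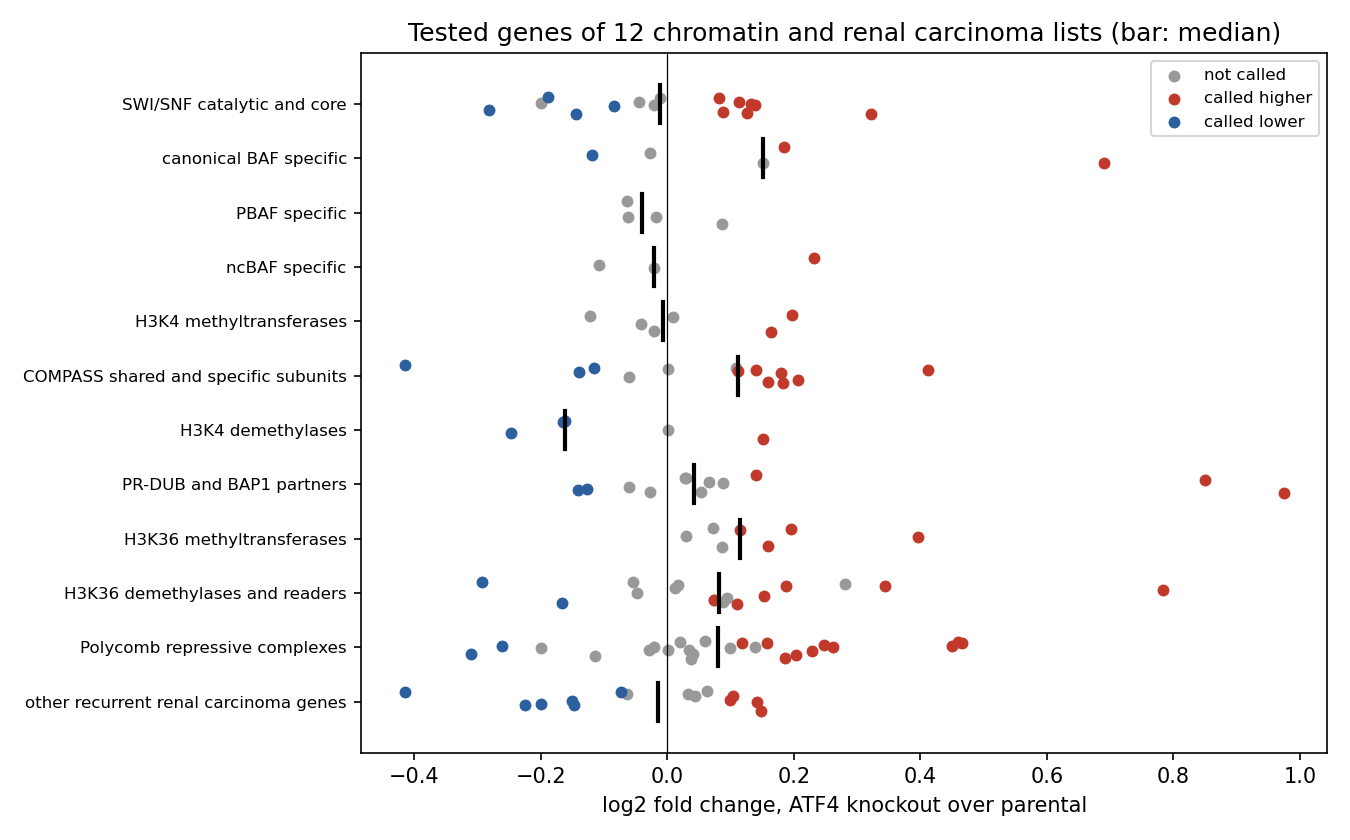
Log2 fold change, ATF4 KO over parental, of each tested gene of the 12 lists, red where called higher, blue where called lower and grey where not called, with the list's median as a black bar. BRCA1 (0.97), BARD1 (0.85), PHF19 (0.78) and DPF1 (0.69) lie farthest to the right, and KDM6A (-0.41) farthest to the left.

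As a description of pattern, the genes whose log2 CPM followed each called gene most closely were found over the 6 libraries among 9179 protein-coding genes of at least 10 CPM. For ARID1A they were RPH3AL, AFDN and FAM222B, with Pearson's r of 0.996, 0.994 and 0.993. For KMT2D they were SYNE2, NEK4 and MACF1, for SMARCA4 COPS8, TBC1D14 and EXOSC2, and for SMARCB1 KDELR2, KRT18 and SHMT1. For KDM5C they were TAF8, ATF3 and ZC3H12C, with r of 0.995, 0.992 and 0.988. Such values were common with 6 points in 2 groups: 56 to 356 genes exceeded 0.95 for each of ARID1A, KMT2D, SMARCA4 and SMARCB1, and 11 did for KDM5C, whose low KO replicate 1 sets its pattern.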

How the data were processed

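RCC4 total RNA was sequenced from stranded mRNA libraries, and the table the authors deposited holds raw counts per gene for 60683 Ensembl IDs. The submitters' processing notes name bcl2fastq 2.20, cutadapt, STAR, HTSeq and GRCh38. Other versions, the annotation release and the strand setting: not given in the sources used here. The paper supplied with the series treats mouse kidneys, so it guided only the style of writing. Symbols came from a gene name table for 60370 IDs and from GENCODE 29 for 289 more. Coordinates and exon lengths came from GENCODE 29, which lacks 2187 of the IDs.

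Genes were kept by edgeR's filterByExpr, scaled by TMM and tested with edgeR 4.0.16 (glmQLFit, robust, group only) in R 4.3.3, with Benjamini-Hochberg adjustment over all 15321 tested genes and a threshold of 0.05. Standard errors and 95% intervals came from the fitted weights. RPKM was computed from TMM-scaled counts and exon length. Ratios of counts of 5 gene pairs were tested by exact permutation. The fits were checked on simulated counts. Within groups, libraries differed by more than counting error (chi-square over degrees of freedom, 3.59 to 5.80), so all 6 were kept as samples. Total counts of 41002611 to 46755358 limit the precision of genes with few counts.

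The 9 genes, the lists and the rule for the genes named were chosen with earlier results of these data known. Named were the 9 genes, ATF4, some cell markers and the 2 tested neighbours on each side. In each list the 3 genes of smallest p and called genes past 0.5 on the log2 scale were named. So were the 3 genes most like each called gene. A few genes that this rule names are not reported here. RLE scaling, total counts only, DESeq2 1.42.0, limma-voom (limma 3.58.1), other filters, a replicate block, removal of the neighbours' median and leaving out each library were tried. Removal with 10 and 50 genes a side was added after seeing the data. No column of the table was left out.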

Additional observations from a re-analysis of the deposited data

How the results depend on the processing

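With total counts only, 5 of the 9 genes were higher and 1 lower: SETD2 (0.10, adjusted p = 0.043) and BAP1 (0.09, 0.044) were called, KDM5C was not (-0.22, 0.071), and KMT2C stood at 0.0051. DESeq2 called 1 lower, KDM5C having an adjusted p of 0.062 at -0.25. Removing the median of 25 neighbours a side left 1 higher and 0 lower, and 13 of the listed genes lower, with KDM5C at 0.0012 and SMARCB1 at 0.086. With 10 a side 1 was higher and 0 lower (BAP1 -0.0059, SMARCB1 0.095), and with 50 a side 3 were higher and 0 lower (SMARCB1 0.11, KMT2C 0.011). These shifts follow from the offset itself; for the other settings the cause was not tested. Leaving out 1 library at a time gave 2 to 4 genes higher and 1 to 2 lower, with log2 fold changes of -0.053 to 0.023 for KMT2C and of -0.12 to 0.0018 (without KO replicate 1) for PBRM1, and a KDM5C to KDM5A log2 ratio difference of -0.20 to 0.063. RLE scaling, limma-voom and the low-count filters changed no call of the 9 genes, and the strict filter (10 CPM in 3 libraries) gave no value for PBRM1. Over 16 alternatives the adjusted p of ARID1A spanned 6.6e-06 to 0.079. Replicate numbers did not pair the samples: deviations of libraries of the same number correlated at -0.019, 0.092 and 0.011. With the replicate block 3 of the 9 genes were higher and 2 lower, and 3224 and 3181 of all genes, against 3244 and 3184 without it. PBRM1 and KDM5C had the fewest counts of the 9 genes, and the part of depth in their spread was not tested.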
